A study of Mus musculus with 9 samples.

Results

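CHD7 peaks that lay between genes, over 50 kb and at most 100 kb from the nearest protein-coding transcription start site (TSS), are described here. A peak of the deposited list was taken when its midpoint was outside the body of every protein-coding gene of GENCODE M21 and within these limits of the nearest 5′ end of any transcript of such a gene. The rule found 282 of the 3761 peaks, or 7.50% of the list, and they are called the members. With peaks inside gene bodies included, 437 peaks lay within the same limits. The rule used position only, so the members' distances and their intergenic place are not findings.

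The peaks come from CUT&RUN on wild-type (WT) cardiac progenitor (CP) cells, which were C57BL6-derived mouse embryonic stem cells taken at day 5 on the way to cardiomyocytes (CMs). In CUT&RUN an antibody guides a nuclease to a chromatin protein and the DNA that is cut free is sequenced. There were 3 groups of 3 biological replicates, with antibody to CHD7, with IgG as negative control and Input without antibody, and all 9 libraries shared the genotype, the cells and the day. The authors called peaks per sample with IgG as background and merged the calls shared by at least 2 replicates into 1 list of positions with no height, read count or P-value. The cells were a population grown in vitro from stem cells, and a list of positions cannot show marker genes, so the label of the cells could not be checked against markers. It also cannot tell weak binding in many cells from strong binding in a few. No depth and no replicate error can be given for any value below, and tests over peaks measure the spread of counts over positions, not the spread between replicates.

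CHD7 is an ATP-dependent chromatin remodeller of the CHD family, which moves nucleosomes and is known from other cell types to sit at promoters and at distal enhancers. Mutation of the human gene causes CHARGE syndrome, in which heart outflow defects are frequent. Enhancers are DNA elements that bind transcription factors and can act on a promoter over long distances, and the nearest gene is not always the gene on which an enhancer acts. Gene names below therefore mark a place in the genome, not a target.

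Sequences of chosen members are given first as examples, all read from the plus strand of GRCm38. The 6 motifs of heart-related factor families were GATA, MEF2, T-box, NKX2-5, TEAD and homeodomain. Within the central 200 bp only 2 members held 3 different ones, a count that was not made for other peaks. The central windows of these 2 members follow, with every match to the 6 motifs in capitals. The first lay 98627 bp downstream of the TSS of Map1s, a microtubule-associated protein gene, and the second 64341 bp downstream of that of Abcc12, an ABC transporter gene.
peak1702, Map1s, chr8:71010345-71010544: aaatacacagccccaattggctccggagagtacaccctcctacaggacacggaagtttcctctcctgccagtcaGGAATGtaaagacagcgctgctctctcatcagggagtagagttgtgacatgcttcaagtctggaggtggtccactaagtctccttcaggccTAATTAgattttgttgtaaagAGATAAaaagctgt
peak1730, Abcc12, chr8:86470306-86470505: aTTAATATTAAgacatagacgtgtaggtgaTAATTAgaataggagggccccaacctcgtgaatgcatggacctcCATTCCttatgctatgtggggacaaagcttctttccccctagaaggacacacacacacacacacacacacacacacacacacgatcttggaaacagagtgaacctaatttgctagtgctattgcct

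A pair of members held 3 GATA matches each in the central window, and they were picked out after their values were seen. They lay beside Has2, the hyaluronan synthase that makes the cardiac jelly of the early heart, and beside Cxcr4, a chemokine receptor of migrating cells. Windows with 3 GATA matches were not counted in other peaks. At least 1 central GATA match was in 9.57% of members, 13.8% of nearer intergenic peaks (over 10 to 50 kb), 14.6% of farther ones (over 100 kb) and 11.8% of all peaks. The same capitals apply, so that AGATAA and its reverse complement mark GATA, and the final match of the Has2 member is to TEAD.
peak3131, Has2, chr15:56627481-56627680: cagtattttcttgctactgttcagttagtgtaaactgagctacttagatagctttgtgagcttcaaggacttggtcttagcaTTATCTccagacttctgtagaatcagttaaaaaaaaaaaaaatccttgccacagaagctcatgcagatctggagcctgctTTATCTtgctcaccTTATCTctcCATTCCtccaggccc
peak134, Cxcr4, chr1:128532778-128532977: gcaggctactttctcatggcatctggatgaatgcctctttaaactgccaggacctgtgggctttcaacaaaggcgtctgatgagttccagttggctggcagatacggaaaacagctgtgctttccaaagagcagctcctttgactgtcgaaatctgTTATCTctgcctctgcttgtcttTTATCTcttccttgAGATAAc

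The T-box core AGGTGTGA was found in the central window of 7 members, and these 7 matches are shown with 16 bp on each side because the T-box motif had the highest odds ratios of the 14 motifs. The match is in capitals, as itself or as its reverse complement.
peak128, C1ql2, chr1:120391821-120391860: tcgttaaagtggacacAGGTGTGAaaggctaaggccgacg
peak566, Car2, chr3:14959309-14959348: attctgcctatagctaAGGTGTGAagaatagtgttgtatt
peak585, Fxr1, chr3:33956235-33956274: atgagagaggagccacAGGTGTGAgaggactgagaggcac
peak1389, Bcat1, chr6:144982016-144982055: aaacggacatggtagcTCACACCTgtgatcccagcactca
peak2727, Klf6, chr13:5769672-5769711: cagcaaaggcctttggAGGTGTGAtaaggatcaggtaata
peak2791, Atxn1, chr13:46023167-46023206: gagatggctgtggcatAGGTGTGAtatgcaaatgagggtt
peak3075, Gpc6, chr14:116837350-116837389: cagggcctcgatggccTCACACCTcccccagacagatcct
In 2 of the 7, those beside C1ql2 and Bcat1, the match lay in soft-masked sequence, which is sequence marked as repetitive in the assembly.

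Central windows of a pair of members with a CpG island are also shown, since CpG islands gave the sole feature difference that passed a test, with every CG in capitals. The member nearest to Ndst3 spans the start of the noncoding gene Snhg8, and its window holds 19 CG pairs. That nearest to Msx1 is 256 bp from the start of the lincRNA Gm20052, and its window holds 8.
peak691, Snhg8, chr3:123508257-123508456: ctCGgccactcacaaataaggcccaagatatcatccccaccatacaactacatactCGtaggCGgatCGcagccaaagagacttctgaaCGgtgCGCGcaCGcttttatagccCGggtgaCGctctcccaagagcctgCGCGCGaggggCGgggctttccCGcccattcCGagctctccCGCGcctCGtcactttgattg
peak1006, Msx1, chr5:37893416-37893615: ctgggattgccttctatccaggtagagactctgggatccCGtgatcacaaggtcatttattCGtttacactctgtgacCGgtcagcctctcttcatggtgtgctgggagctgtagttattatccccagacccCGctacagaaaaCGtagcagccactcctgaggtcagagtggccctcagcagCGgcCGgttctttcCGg

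The first question was how densely CHD7 peaks occupy this part of the genome. Members fell at 1.28 per Mb (exact Poisson 95% interval 1.14 to 1.44) of the 219.7 Mb of intergenic sequence that obeys the same rule, which is 8.30% of the genome. Intergenic sequence over 10 kb and at most 50 kb from a TSS, called nearer here, held 593 peaks at 1.58 per Mb (1.45 to 1.71). Intergenic sequence over 100 kb away, called farther, held 369 peaks at 0.442 per Mb (0.398 to 0.490). The density of members was 2.90 times that of the farther peaks (P = 5.18e-38, 2-sided exact conditional binomial test). It was 0.814 times that of the nearer peaks (P = 0.00451, same exact test). On autosomes alone these ratios were 2.95 (P = 6.16e-39) and 0.859 (P = 0.0368, same exact test), in a setting added after the data were seen.

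Within the limits of the rule, density was highest next to 50 kb. It was 1.57 members per Mb (1.25 to 1.94) between 50 and 60 kb, with 85 members, and 0.926 per Mb (0.648 to 1.28) between 80 and 90 kb, with 36 members. The bins from 60 to 70 kb, from 70 to 80 kb and from 90 to 100 kb had 1.34, 1.31 and 1.17 per Mb, with 64, 56 and 41 members. The intervals of neighbouring bins overlapped, and those of the first and the fourth bin met between 1.25 and 1.28 per Mb.

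**Figure D1:**
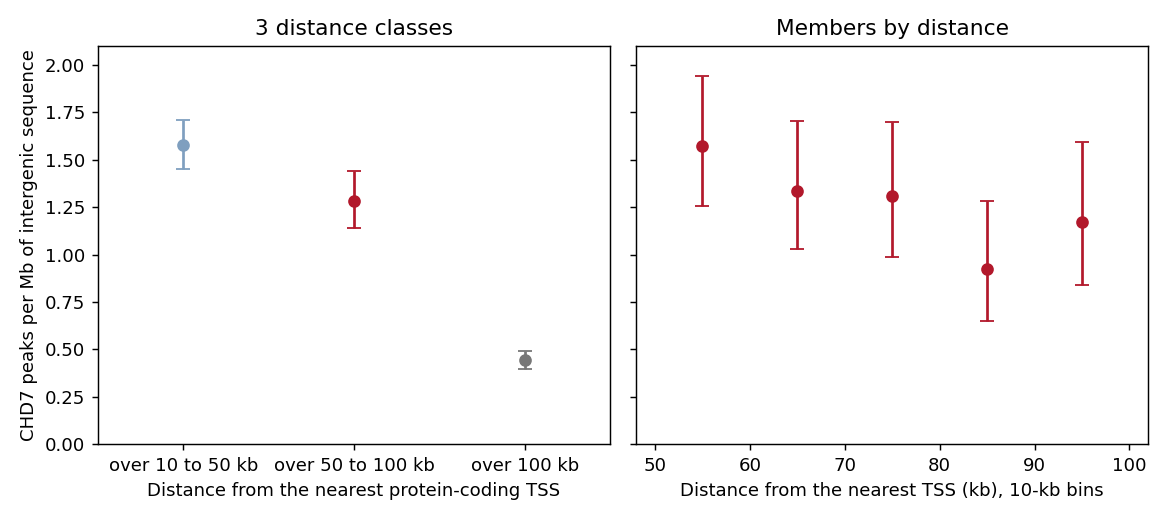
CHD7 peaks per Mb of intergenic sequence (vertical axis) in 3 classes of distance from the nearest protein-coding TSS (left) and in 10-kb bins of distance for the members alone (right). Points are densities and bars exact Poisson 95% intervals; the members stood at 1.28 per Mb, between 1.58 per Mb for nearer and 0.442 per Mb for farther sequence.

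Members were found on 20 chromosomes, which were all autosomes and X. The autosomes with the highest density were chromosome 11 with 18 members at 2.48 per Mb (1.47 to 3.91), chromosome 15 with 19 at 2.39 per Mb (1.44 to 3.73) and chromosome 16 with 18 at 2.32 per Mb (1.38 to 3.67). The lowest autosome was chromosome 7, with 10 members at 0.981 per Mb (0.471 to 1.80). The intervals of single autosomes were wide, and each overlapped that of every other autosome.

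Chromosome X stood apart. It holds 9.58% of the sequence of the rule, 21.04 Mb, and carried 1 member, which lay 95713 bp upstream of the TSS of Nhs, the gene of Nance-Horan syndrome, and was among the 3 narrowest members with 385 bp. That is 0.0475 members per Mb (0.00120 to 0.265), against 1.41 per Mb on the other chromosomes together (281 members in 198.7 Mb). The ratio was 0.0336 (P = 2.21e-11, 2-sided exact conditional binomial test), in a comparison that was added after the counts were seen. The scarcity was not particular to this distance, since 4 of the 593 nearer peaks (0.675%), 2 of the 369 farther peaks (0.542%) and 14 of all 3761 peaks (0.372%) were on X. The number of X chromosomes in the cells and the calling on X are not given in the sources used here, and their part in the count was not tested. Chromosome Y had 0 members in 12.3 Mb, which allows up to 0.299 per Mb.

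**Figure D2:**
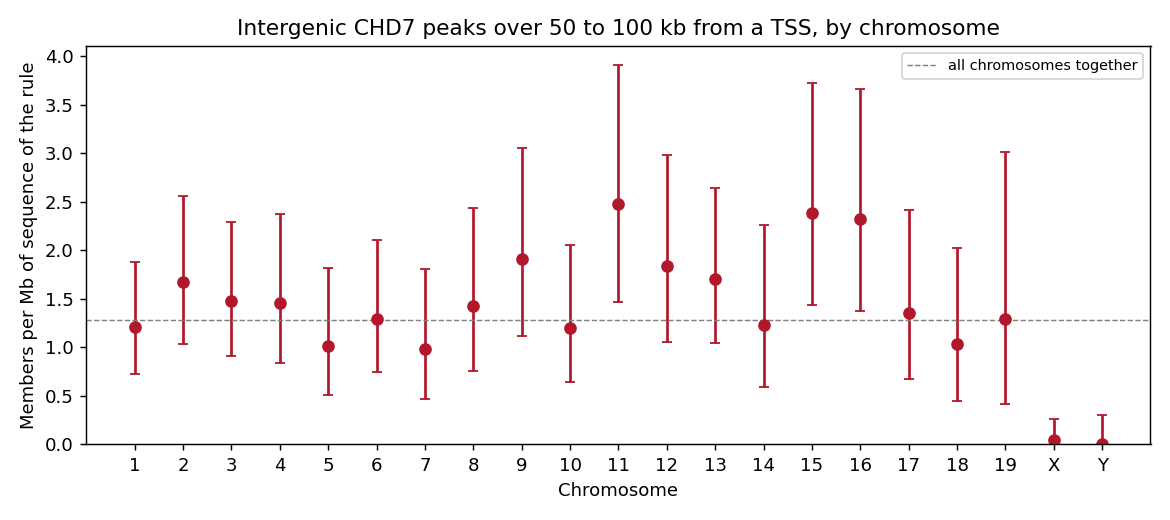
Members per Mb of intergenic sequence over 50 and up to 100 kb from a TSS (vertical axis), by chromosome. Points are densities, bars exact Poisson 95% intervals and the dashed line the density over all chromosomes, 1.28 per Mb; X, at 0.0475 per Mb, lies below every autosome, and Y has 0 members.

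The width of members ran from 370 to 3059 bp with a median of 687.5 bp (quartiles 532 and 1049.8 bp). Over all peaks the median was 703 bp (quartiles 530 and 1053 bp). Of the members, 26 were wider than 1500 bp and 59 narrower than 500 bp, counts that were not made for other peaks. The gap between the TSSs that flank a member had a median of 243527 bp, where the rule itself asks for over 100 kb. Both flanking TSSs were counted as within 100 kb for 54 members. That count takes in the member nearest to Rfc3, which had no protein-coding TSS on its other side. For 49 members the TSS on the other side was over 500 kb away. The members together covered 242792 bp.

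The 3 widest members were 3059 bp beside Ccnl1, a cyclin of RNA processing, 2998 bp beside Fam110c and 2900 bp beside Nectin1, a cell adhesion gene. The 3 narrowest were 370 bp beside Tcf4, a bHLH transcription factor gene, 376 bp beside Ncoa2, a nuclear receptor coactivator, and the 385 bp member of Nhs. At the limits of the rule, the members closest to 50 kb were those of Spag9 at 50067 bp, Fam222a at 50164 bp and Mocs1 at 50402 bp. Peaks of Hira at 49894 bp, Myrip at 49871 bp and Srd5a2 at 49744 bp were just outside. The members closest to 100 kb were those of Sntn at 99759 bp, Hes1 at 99523 bp and Oxgr1 at 99457 bp, and peaks of Hmga2 at 100539 bp, Dync1i1 at 100796 bp and Vps41 at 101170 bp were just outside.

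Next, 7 features of the members were compared with nearer and with farther intergenic peaks by 2-sided Fisher's exact tests, adjusted over the 14 comparisons by the Benjamini-Hochberg method. Of the 14, 1 passed an adjusted P of 0.05 and 2 had an unadjusted P under 0.05. The one that passed was the share of peaks with a CpG island, meaning here a stretch of at least 200 bp with GC content over 50% and observed CpG over 0.6 of that which the base composition gives. CpG islands are the usual promoters of housekeeping and many developmental genes. They were in 25 of 282 members (8.87%, Wilson 95% confidence interval 6.08 to 12.8) and in 12 of 369 farther peaks (3.25%, 1.87 to 5.60), an odds ratio of 2.89 (P = 0.00320, adjusted P = 0.0447, Fisher's exact test) and a difference of 5.61 percentage points (1.97 to 9.75). Nearer peaks had 63 of 593 (10.6%, 8.39 to 13.4; odds ratio 0.818, adjusted P = 0.920, Fisher's exact test), and the whole list, promoters included, 19.7%. The difference from farther peaks lost its call in 5 alternatives: the adjusted P was 0.395 with basic transcripts only, 0.337 with 1 TSS per gene, 0.491 with long noncoding genes counted as genes, 0.263 between 60 and 90 kb and 0.335 for peaks wider than the list's median. With a stricter definition of the island the odds ratio was 8.16 against farther peaks (adjusted P = 0.0225, Fisher's exact test) and 1.01 against nearer peaks. A stricter island also meets the wider definition, so the value of 8.16 rests on at most 12 farther peaks.

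Of the 25 members with a CpG island, 6 had the nearest TSS of a developmental gene from the lists below: Lhx1, Sall4, Msx1, Pax6, Wnt7b and Fn1. The nearest gene of the other 19 was not in the lists. Among these 19, 1 lay between Larp1 and Hand1, a bHLH factor of the heart and outflow tract, at 79364 bp and 96882 bp from their TSSs. A further pair had a listed gene across from the nearest one, between Mvb12b and Pbx3 and between Tmem132d and Fzd10. A listed gene was the nearest for 13.8% of all members and 7.21% of all peaks, and lay across from the nearest for a further 11 members. Whether members with an island lay beside listed genes more often than the others was not tested. Of the 25, 3 (12.0%) were within 1 kb of a noncoding TSS, and of the 257 members without an island 7 were (2.72%), a difference that was not tested. The observed to expected CpG ratio over the whole peak was highest, at 0.913, for the member that spans the start of Snhg8.

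GC content had a median of 46.5% in members, 46.8% in nearer and 45.2% in farther peaks. It was above the list's median in 118 members (41.8%, 36.2 to 47.7), 42.2% of nearer and 33.3% of farther peaks, against 50% of the list. The difference from farther peaks, 8.51 percentage points (1.02 to 15.95), had an unadjusted P of 0.0272 by Fisher's exact test and did not pass the adjustment (adjusted P = 0.191). Members wider than the list's median were 48.2%, against 50.4% of nearer, 40.9% of farther and 49.9% of all peaks. The width differences were -2.19 percentage points (-9.22 to 4.87) from nearer and 7.31 points (-0.385 to 14.9) from farther peaks, with adjusted P of 0.920 and 0.235.

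**Figure D3:**
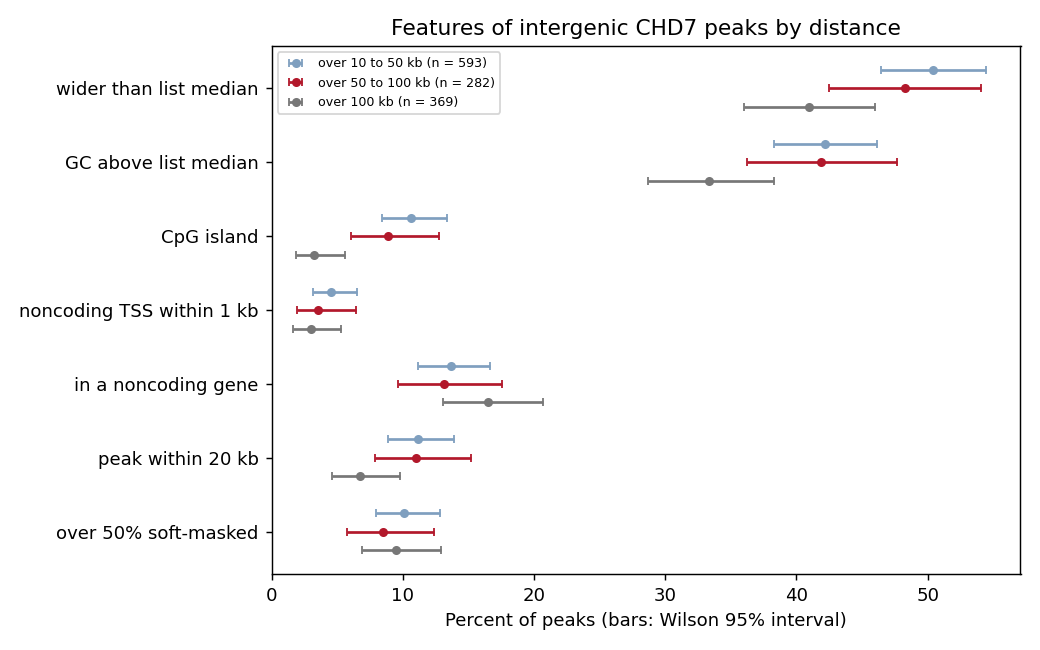
Percent of peaks (horizontal axis) with each of 7 features (rows) in members (red, n = 282), nearer (blue, n = 593) and farther (grey, n = 369) intergenic peaks. Points are shares and bars Wilson 95% confidence intervals; CpG islands, at 8.87% of members and 3.25% of farther peaks, are the feature that passed the adjusted test.

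Members lay within 1 kb of a noncoding TSS in 10 cases (3.55%, 1.94 to 6.40), against 4.55% of nearer, 2.98% of farther and 4.36% of all peaks (adjusted P = 0.920 and 1.0, Fisher's exact test). The genes were Snhg8, which hosts a small nucleolar RNA, at 24 bp, AC133525.1 at 42 bp, 4930502C17Rik at 66 bp, Gm39157 at 69 bp, Gm20052 at 256 bp, Gm4681 at 263 bp, Gm31463 at 351 bp, Gm24559 at 466 bp, B230206L02Rik at 630.0 bp and Gm4035 at 687 bp. The member with Gm20052 was nearest to Msx1, and that with Gm31463 to Efnb2, which encodes an ephrin ligand of vessels. A further feature, a place inside a noncoding gene body, held for 37 members (13.1%), 13.7% of nearer, 16.5% of farther and 9.52% of all peaks, with adjusted P of 1.0 and 0.752. Over 50% of the bases were soft-masked in 24 members (8.51%), in 10.1% of nearer, 9.49% of farther and 6.91% of all peaks (adjusted P = 0.920 and 0.955, Fisher's exact test). The median member was 15.6% masked, and 20.9% of all bases of members were masked, while 41.3% of the intergenic sequence of the rule was.

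A second CHD7 peak within 20 kb was present for 31 members (10.99%, 7.85 to 15.2), for 11.1% of nearer peaks, 6.78% of farther peaks and 11.1% of all peaks. The difference from farther peaks was 4.22 percentage points (-0.149 to 8.92; adjusted P = 0.235, Fisher's exact test). With the distance set to 50 kb it passed (odds ratio 1.97, adjusted P = 0.0118, Fisher's exact test). The 31 members fell into 18 groups of 2 peaks, and in 13 groups both peaks were members. There was no group of 3 or more, and the other 251 members stood alone.

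The 282 members had their nearest TSS in 265 genes, and 17 genes had 2 members while none had more. In 16 of the 17 pairs both members were on the same side of the TSS, and 12 pairs were at most 20 kb apart. By the rule, 2 members on both sides of a TSS are over 100 kb apart, so close pairs can only be on the same side. Sides of pairs were not counted for other peaks. The closest were 2070.0 bp apart upstream of Tcf4 and 2873 bp apart upstream of Msx1. The Msx1 pair, 66060.0 and 68933 bp upstream, was 529 and 898 bp wide, and the wider peak held the CpG island shown above. Next came Spag9 (5040.0 bp apart), Mtss1 (6678 bp), Hes1 (6868 bp), Agps (6897 bp) and Ppp2r5a (7759 bp). Grm4, Etv5, Ddit4l, Cdkn3 and Bbx had pairs 10642, 12569, 18381, 19065 and 19727 bp apart. Lhx1, Mkln1, Ext1 and Melk had pairs 24539, 26075, 26198 and 27954 bp apart. The pair of Tln2, a talin gene, lay on both sides of its TSSs and 472713 bp apart.

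Members were upstream of the nearest TSS in 164 cases (58.2%, 52.3 to 63.8) and downstream, past the 3′ end of the gene, in 118. Of the 200-bp windows of all sequence of the rule, 56.9% were upstream, so the side was near the background. Upstream and downstream members were alike in median width, 679.5 and 697.5 bp, and in median GC content, 46.3% and 46.5%.

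Among 11 lists of developmental, contractile and chromatin genes with 520 genes in all, 35 genes had the nearest TSS of 39 members (13.8%). The share was 7.21% over all peaks, 8.26% in nearer and 17.1% in farther peaks, and 6.86% of the windows of the sequence of the rule had their nearest TSS in a listed gene. The classes were not tested against each other for this share. The largest counts were 8 members for mesoderm and pharyngeal transcription factors and 6 each for BMP, TGF-beta and Nodal, for Hedgehog, Notch, retinoic acid and receptor tyrosine kinases, and for guidance, adhesion and matrix. For these 4 lists the share of members was 2.84%, 2.13%, 2.13% and 2.13%, against 0.957%, 0.718%, 0.824% and 1.28% of all peaks. In nearer peaks it was 0.675%, 0.843%, 1.01% and 1.01%, and in farther peaks 1.90%, 1.90%, 1.36% and 2.71%.

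**Figure D4:**
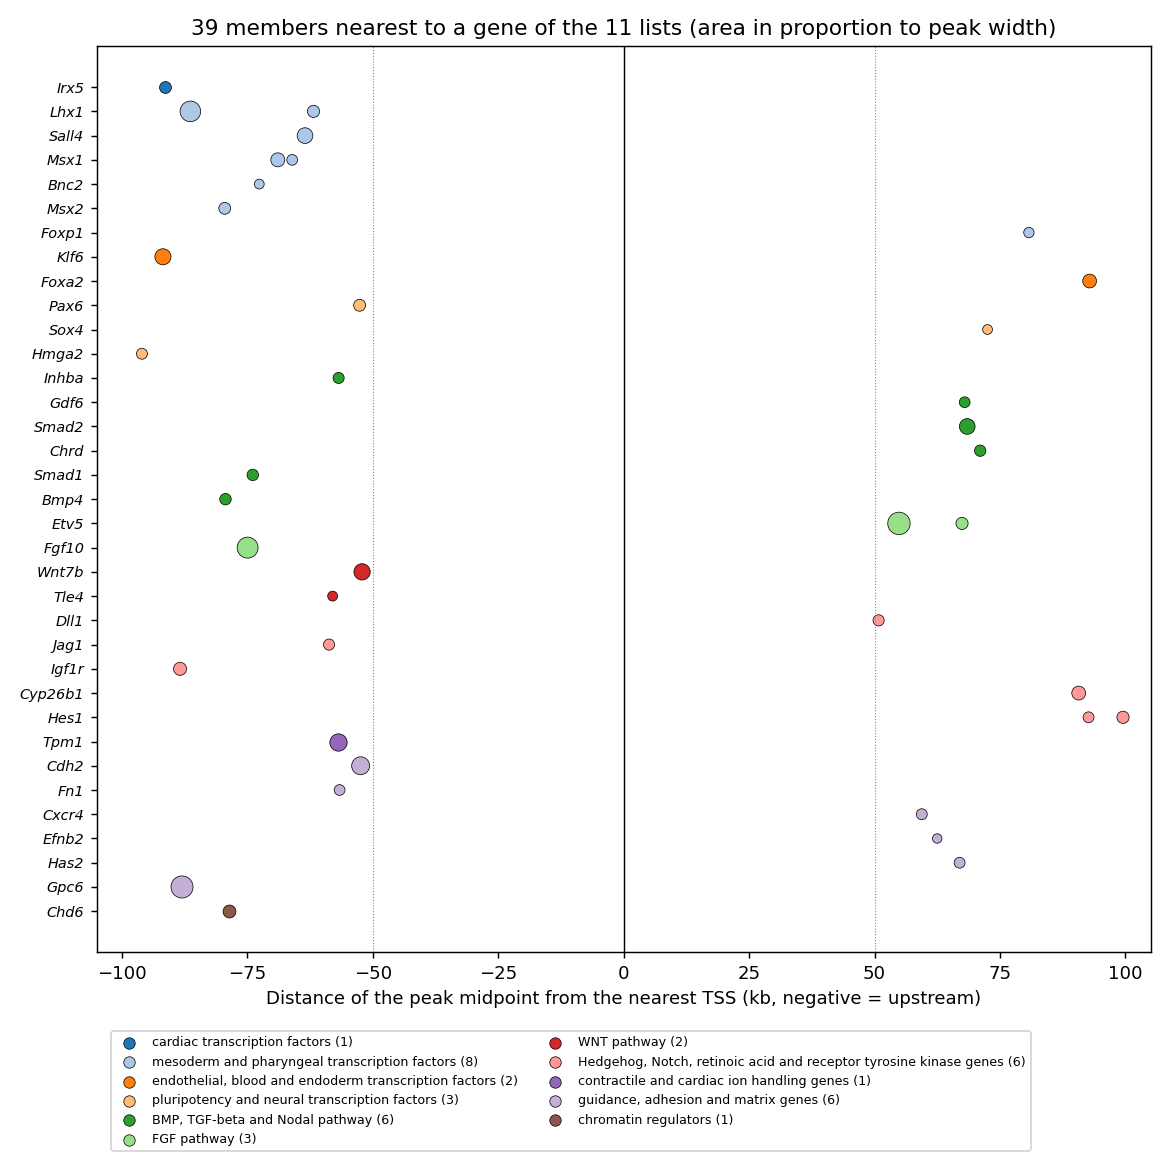
Distance of the 39 members from the nearest TSS of a listed gene (horizontal axis, kb, negative upstream), with 1 row per gene and colour by list. Area is in proportion to peak width and dotted lines mark 50 kb on either side; Lhx1, Msx1, Etv5 and Hes1 have 2 members each, on the same side.

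Of the 36 cardiac transcription factors 1 had a member, Irx5, an Iroquois homeobox gene of the developing heart, with a 645 bp peak 91311 bp upstream. The gene across from it, Irx3, was 464247 bp away. Hand1 had a member on its side between Larp1 and Hand1, the peak of 1335 bp named above, with the Larp1 TSS the closer. The cardiac transcription factors had 0.355% of members, 0.638% of all peaks, 1.18% of nearer and 1.90% of farther peaks.

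The mesoderm and pharyngeal factors were mostly homeobox and zinc finger genes. Lhx1, a LIM homeobox gene of early mesoderm, had peaks of 683 bp at 61815 bp and of 1949 bp at 86354 bp upstream. Msx1 and Msx2, homeobox effectors of BMP signals, had members upstream, the Msx2 peak 650 bp wide and 79502 bp away. Sall4, a zinc finger factor of stem cells and limb and heart development, had a 1132 bp peak 63508 bp upstream. Bnc2 had a 441 bp peak 72620.0 bp upstream, and Foxp1, a forkhead gene, a 494 bp peak 80766 bp downstream of the nearest of its TSSs. With 1 TSS per gene the Foxp1 peak was 417496 bp away, outside the limits. Thus 6 of the 67 genes of this list had 8 members, 7 of them upstream.

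Of endothelial, blood and endoderm factors, Klf6 had a 1190.0 bp peak 91819 bp upstream with a T-box match, and Foxa2, a pioneer factor of endoderm, an 874 bp peak 92869 bp downstream. Of pluripotency and neural factors, Pax6, the eye and neural tube regulator, had a 653 bp peak 52622 bp upstream. Sox4 had a 441 bp peak 72524 bp downstream and Hmga2 a 551 bp peak 96008 bp upstream, 4531 bp from a peak that fell just outside the limit.

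The BMP, TGF-beta and Nodal list had ligands, an inhibitor and signal carriers among its members. Bmp4, a BMP ligand of the heart field, had a 602 bp peak 79356 bp upstream, and Cdkn3, the next gene on that side, had 2 members of 1969 and 398 bp whose distance to the Bmp4 TSS was 271394 and 290459 bp. Gdf6, a ligand of joint and eye, had a 532 bp peak 67967 bp downstream and Inhba, the activin subunit, a 567 bp peak 56808 bp upstream. Chrd, the BMP antagonist chordin, had a 588 bp peak 71055 bp downstream. The SMAD proteins carry the receptor signal to the nucleus: Smad1 had a 600 bp peak 73918 bp upstream and Smad2 an 1132 bp peak 68474 bp downstream. The Inhba member had the lowest GC content of all members, 33.0%.

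In the FGF list, Fgf10, a growth factor of the second heart field, had a 2019 bp peak 74945 bp upstream of the nearest of its TSSs. With 1 TSS per gene this distance was 119853 bp, outside the limits, and the Etv5 peaks below were nearest to Tra2b, so none of the 3 members of the FGF list kept its place there. The peak held 2 GATA matches, though none in its central window, and was 15.2% masked. Etv5, an ETS factor induced by FGF signals, had peaks of 2311 bp at 54867 bp and of 678 bp at 67436 bp downstream, and the wider was 57.9% masked. In the WNT list, Wnt7b had a 1225 bp peak with a CpG island 52135 bp upstream and Tle4, a corepressor of TCF factors, a 449 bp peak 58002 bp upstream.

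Notch genes had 4 of the 6 members of their list. Dll1, a Notch ligand of somites, had a 579 bp peak 50813 bp downstream, and Jag1, a ligand of the outflow tract and vessels, a 570.0 bp peak 58709 bp upstream with a central GATA match. Hes1, the repressor that Notch induces, had peaks of 544 and 684 bp at 92655 and 99523 bp downstream, which were 76.3% and 52.0% masked. Igf1r, a growth factor receptor, had a 784 bp peak 88408 bp upstream, and Cyp26b1, which degrades retinoic acid, an 883 bp peak 90691 bp downstream.

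The contractile list had a single gene with a member. Tpm1, the tropomyosin of cardiac thin filaments, had a 1380.0 bp peak 56834 bp upstream, and a member nearest to Tln2, 1164 bp wide, lay 114433 bp from Tpm1 on the same side. In the guidance, adhesion and matrix list, Cdh2 (N-cadherin) had a 1474 bp peak 52422 bp upstream, Fn1 (fibronectin) a 533 bp peak with a CpG island 56614 bp upstream, and Gpc6, a glypican, a 2240.0 bp peak with a T-box match 88020.0 bp upstream. Cxcr4, Efnb2 and Has2 had members of 551, 410 and 542 bp at 59412, 62490 and 66958 bp downstream. Of chromatin regulators Chd6, a CHD family relative of CHD7, had a 765 bp peak 78691 bp upstream. With 1 TSS per gene, 36 of the 39 kept the same nearest gene and 36 stayed within the limits, but these were different sets. The Chrd peak was then nearest to Thpo and both Etv5 peaks to Tra2b. The Fgf10 and Foxp1 peaks and the farther Hes1 peak, then at 100521 bp, left the limits.

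A further 11 members had a listed gene across from the nearest one, at any distance, a count that was not made for other peaks. These genes were Hand1, Meis1, Pbx3, Esrrb, Bmp4, Fzd10, Wnt4, Gli3, Tpm1 and Unc5b, and Bmp4 was there for both Cdkn3 peaks. The Wnt4 member, 1988 bp wide, lay 94442 bp upstream of Zbtb40 and 134246 bp from Wnt4, a WNT ligand. That of Meis1, a TALE homeobox cofactor, lay over 1 Mb from it, at 1000843 bp.

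Motifs were counted as exact matches on both strands in the central 200 bp of each peak. GATA was searched as AGATAA, the homeodomain core as TAATTA, the caudal core as CATAAA and the T-box core as AGGTGTGA. The forkhead core was TGTTTAC, that of TCF/LEF ATCAAAG, of TEAD GGAATG, of NKX2-5 TCAAGTG and of AP-1 TGANTCA, and the E-box of bHLH factors was CAGCTG. The octamer of POU factors was ATGCAAAT, CTCF was searched as CNAGGNGGC and SP/KLF as GGGCGGG, and MEF2 by its usual consensus. Each family was counted on its own, so that overlapping matches of different families all counted. A match says that the letters are there, not that a factor is. None of the 28 comparisons of 14 motifs passed an adjusted P of 0.05 (2-sided Fisher's exact tests, Benjamini-Hochberg), and 2 had an unadjusted P under 0.05.

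Both of the latter were of the homeodomain core, which was less frequent in members. It was in 8 members (2.84%, 1.44 to 5.50), in 42 nearer peaks (7.08%; odds ratio 0.383, P = 0.0120, adjusted P = 0.189, Fisher's exact test) and in 27 farther peaks (7.32%; odds ratio 0.370, P = 0.0135, adjusted P = 0.189, Fisher's exact test). The whole list had it in 4.52%, and 6.78% of the windows of the sequence of the rule held it. At GC content of 40 to 50%, where 145 members lay, 4.14% of members and 4.38% of windows held it, at 50% or over 0.926% and 1.495%, and under 40% 3.45% and 11.3%. Over the whole peak the order turned, with odds ratios of 1.06 and 1.03.

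GATA, the motif of the factors that drive cardiac and blood lineages, was in 27 members (9.57%, 6.66 to 13.6), 13.8% of nearer, 14.6% of farther and 11.8% of all peaks. Its adjusted P was 0.345 in both comparisons, with differences of -4.25 (-8.44 to 0.486) and -5.06 percentage points (-9.98 to 0.0869). The share of windows of the sequence with GATA was 13.3%, but the members' windows were richer in GC, with a median of 48.5% against 41.5%. At GC content of 40 to 50% the shares were 10.3% of 145 members and 11.4% of windows, at 50% or over 8.33% of 108 members and 5.83% of windows, and under 40% 10.3% of 29 members and 18.1% of windows. In the whole peak 108 members (38.3%) had a GATA match, with at most 5 in a peak. Over the whole peak the GATA odds ratios were 0.926 against nearer and 0.896 against farther peaks (adjusted P = 0.906 for both, Fisher's exact test).

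The T-box core, bound by factors such as TBX5 and TBX20, was in 7 members (2.48%, 1.21 to 5.03), 5 nearer peaks (0.843%), 3 farther peaks (0.813%) and 0.718% of all peaks. The odds ratios were 2.99 and 3.10 (unadjusted P = 0.0638 and 0.111, adjusted P = 0.345 for both, Fisher's exact test). Outside soft-masked sequence the counts were 5, 4 and 2, in a comparison added after the data were seen. Of windows of the sequence 0.776% held the core. At GC content of 40 to 50% it was in 4.14% of members and 0.933% of windows, and at 50% or over in 0.926% and 1.14%. Under 40% it was in 0 of 29 members and 0.475% of windows. With a motif window of 400 bp the T-box odds ratios were 1.36 against nearer and 1.49 against farther peaks. The 7 genes were those of the sequences above, named after their values were seen, among them Gpc6, Klf6 and Car2, the carbonic anhydrase gene.

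The E-box CAGCTG was the motif most often found in members, in 39 (13.8%, 10.3 to 18.4), against 10.1% of nearer, 9.49% of farther and 11.6% of all peaks (adjusted P = 0.345 for both, Fisher's exact test). In windows of the sequence it was in 6.93%. Among windows with GC content of 50% or over, 20.4% of the 108 members and 14.4% of the sequence had the E-box. At 40 to 50% the shares were 11.7% of 145 members and 8.04% of the sequence, and under 40% 0 of 29 members and 3.18% of the sequence. TEAD, for the factors of Hippo signals, was in 10.3% of members and 11.8% of all peaks, and AP-1 in 7.09% and 6.65%. MEF2 was in 2.48% and 1.89%, and NKX2-5, the homeodomain factor of heart progenitors, in 3.19% and 2.82%. The forkhead core was in 3.55% of members and 3.11% of all peaks, TCF/LEF in 2.48% and 3.48%, the caudal core in 9.22% and 9.12%, and the octamer in 1.77% and 1.22%. CTCF was in 2.84% and 3.43%, and SP/KLF, which is GC-rich, in 2.48% and 5.24%. The smallest adjusted P of the motifs named after the E-box was 0.345 (Fisher's exact test), for the caudal core against farther peaks, of which 14.4% had it.

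**Figure D5:**
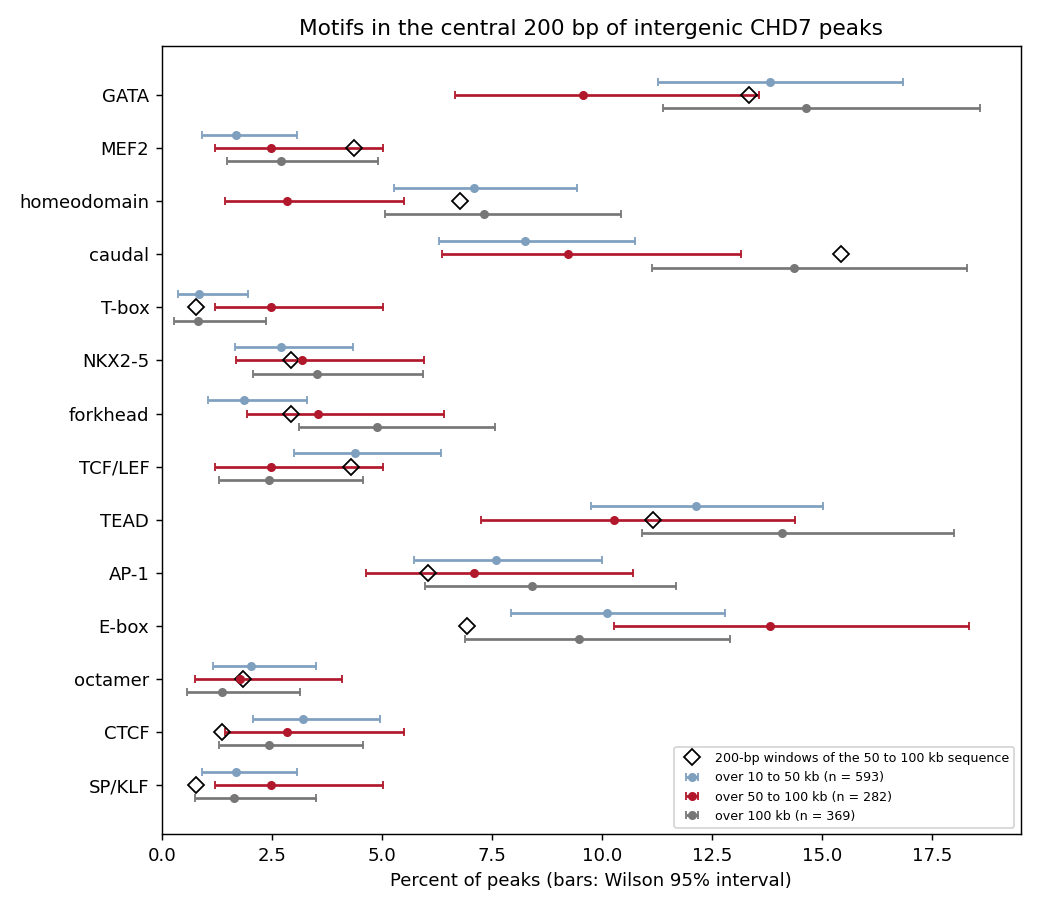
Percent of peaks (horizontal axis) with each of 14 motifs (rows) in the central 200 bp, for members (red, n = 282), nearer (blue, n = 593) and farther (grey, n = 369) peaks, with Wilson 95% confidence intervals. Open diamonds are 200-bp windows of the sequence 50 to 100 kb from TSSs; the members' 2.84% for the homeodomain core is below, and their 2.48% for the T-box above, the shares of the other classes, with no adjusted P under 0.05.

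Most members held few of the 6 heart-related motifs centrally. There were 207 members with none, 65 with 1 kind, 8 with 2 kinds and 2 with 3 kinds. Over the whole peak 82 members had none, 91 had 1 kind, 64 had 2, 38 had 3, 6 had 4 and 1 had 5, a count that grows with width. Neither count of kinds was made for other peaks, so neither can show whether members differ from them. Members wider than their median had a GATA match in 46.8% of cases and the others in 29.8%, while central windows had 9.22% and 9.93%.

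Members between 50 and 75 kb and those between 75 and 100 kb were described side by side, with no test. The 182 closer members had a median width of 688 bp, a median GC content of 46.6%, CpG islands in 19 and a GATA match centrally in 19, or 10.4% for each, and a peak within 20 kb in 24 (13.2%). The 100 more distant ones had 683 bp, 46.0%, 6 CpG islands (6.0%), 8 central GATA matches (8.0%) and 7 with a peak within 20 kb (7.0%). Beside listed genes, CpG islands were in 6 of 39 members (15.4%) and in 19 of the 243 others (7.82%), a difference that was not tested.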

How the data were processed

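The libraries were CUT&RUN with anti-CHD7 or IgG and Input without antibody, 3 of each, from day 5 CP cells. The submitters' processing notes name fastp 0.20.1, BWA 0.7.17.4, MACS2 2.1.2, deepTools 3.1.0 and mm10. The authors called peaks per sample with IgG as control and joined those overlapping in at least 2 replicates. The threshold and the way of joining are not given in the sources used here. The deposited values are positions in bp in 1 pooled list. The agreement of replicates could not be seen, and regions where reads map poorly can lack peaks. The IgG and Input reads were not analysed here.

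Starts were read as counted from 0, and distances run from the midpoint to the nearest TSS in GENCODE M21, with sequence from RefSeq GRCm38.p6. Shares were compared over peaks by 2-sided Fisher's exact tests with Wilson 95% confidence intervals, and Benjamini-Hochberg adjustment over 14 feature and 28 motif comparisons. Densities were compared by the exact conditional binomial test. Peaks on 1 chromosome are not independent replicates. The members, gene lists, motifs and tests were chosen with earlier results of these data known. Named genes were those with 2 or more members, the listed genes, the extremes of width and distance, and those of members with a noncoding TSS within 1 kb or 3 kinds of motif. Genes beside the other sequences shown, and those paired with a listed gene across a member, were named after their values were seen. Alternatives were other TSS sets, limits, windows, peak sets and definitions, given in the closing section. The functions were tested on simulated data. Python 3.11.15, pandas 2.3.3, scipy 1.17.1 and statsmodels 0.14.6 were used.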

Additional observations from a re-analysis of the deposited data

How the results depend on the processing

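No paired analysis was possible because the list pools the 3 replicates and carries no replicate's values, and for the same reason no replicate could be left out. Under 16 alternatives, 2 of them chosen after seeing the data, all values of density kept direction and call. Of 130 feature and density values, 112 kept direction and call. The CpG island odds ratio against farther peaks, 2.89, rose to 8.16 with a stricter island and kept its direction but not its call at 1.89 with basic transcripts only, 1.96 with 1 TSS per gene, 1.77 with long noncoding genes counted as genes, 2.48 between 60 and 90 kb and 2.38 for peaks wider than the list's median. The neighbour odds ratio against farther peaks, 1.70, passed at 1.97 with 50 kb. No comparison that turned direction had passed the test. Against nearer peaks these were GC content (0.987) at 1.02 with basic transcripts, 1.01 with 1 TSS per gene, 1.03 between 60 and 90 kb and 1.001 with peaks within 5 kb joined, the CpG island (0.818) at 1.01 with a stricter definition, the noncoding gene body (0.955) at 1.53 and neighbours (0.986) at 1.43 among wider peaks, neighbours at 1.01 with 50 kb, and repeats (0.826) at 1.18 with 1 TSS per gene. Against farther peaks they were noncoding TSSs (1.197) at 0.950 and repeats (0.888) at 2.60 among wider peaks, and repeats at 1.19 with 1 TSS per gene. Homeodomain odds ratios turned to 1.06 and 1.03 over the whole peak, and the T-box one against farther peaks to 0.869 with long noncoding genes counted. No motif passed under any alternative. With long noncoding genes counted, 177 peaks obeyed the rule, 3.96% nearest to a listed gene and 46.9% upstream, and 65.7% were upstream with 1 TSS per gene. Where long noncoding genes counted, their TSSs could be the nearest, while all 520 listed genes are protein-coding. The upstream share of the sequence, 56.9%, was computed with the main TSS set only. The cause of these differences was not tested. The list used here carries no counts or heights, so the number of peaks limits the precision.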
